A study of Danio rerio with 15 samples.

Results

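The messages of 6 genes of the mitotic cyclin and anaphase-promoting complex system were followed across zebrafish embryos of 6 groups. They are the A-type cyclin genes ccna1 and ccna2, the B-type cyclin genes ccnb1 and ccnb2, the coactivator gene cdc20 and the inhibitor gene fbxo5. Members were the probe sets whose only gene symbol in the platform annotation was one of these names. Each gene had 1 such probe set, so there were 6 members of 8793 genes with a probe set of their own symbol, on an array of 15617 probe sets. The annotation gave them the Entrez gene numbers 404206 (ccna1), 192295 (ccna2), 58025 (ccnb1), 368316 (ccnb2), 406353 (cdc20) and 445392 (fbxo5). No probe set with several symbols named any of them. The ending of the ccnb1 probe set's name marks a probe set that can also match other transcripts, so its signal is less certain than the others.

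The data are 15 Affymetrix Zebrafish arrays, each of which was given RNA from 20 whole embryos raised at 28 °C. The labels gave MZdicer embryos injected with miR-430, uninjected MZdicer embryos at 9 hours after fertilisation, wild-type embryos injected with miR-430 and uninjected wild type at 9 hours (3 arrays each), wild-type TLAB embryos at the 16-cell stage (2 arrays) and at 50% epiboly (1 array). In MZdicer embryos neither the mother nor the embryo supplies Dicer, which matures microRNAs from their precursors. The miR-430 microRNAs are made in large amounts once the embryo's own genome becomes active. Injections were made at the 1-cell stage. The labels give no dicer allele, no age for injected embryos, no strain outside the stage samples and no dose, and no group injected without miR-430 was analysed here, so miR-430, the injection itself and any difference in age cannot be told apart. Nor do they tell whether replicates were separate clutches, and the spread behind each p-value is that between these arrays and may be technical.

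Cyclins bind and activate cyclin-dependent kinases. B-type cyclins with Cdk1 drive entry into mitosis, and A-type cyclins act in DNA replication and early mitosis. The anaphase-promoting complex (APC/C) is a ubiquitin ligase that marks cyclins and securin for destruction. It is switched on in mitosis by Cdc20 and held off during S and G2 phase by Fbxo5, also called Emi1. In fish and frog embryos the first cleavages are fast cycles of replication and division without gap phases, run on messenger RNAs that the mother laid down in the egg. By its title the series is about how miR-430 acts on the poly(A) tails and the removal of such maternal messages.

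Levels below are quantile-normalised intensities on a linear scale, and differences are on the log2(intensity + 16) scale, which understates the change of dim transcripts. Calls are at an adjusted p under 0.05 in limma over 15502 probe sets. Because cDNA was primed with oligo(dT), a transcript's signal depends both on its amount and on its poly(A) tail. In RNA from whole embryos, fewer cells of a type and less RNA per cell cannot be told apart. Median deposited intensities ran from 154 to 195 across arrays. Deposited dicer1 intensities were 265, 271 and 307 in injected MZdicer and 335, 309 and 328 in uninjected MZdicer, against 510, 510 and 543 in injected wild type and 478, 389 and 409 in uninjected wild type. All 6 MZdicer arrays were thus below all 6 wild-type arrays of those groups. The position of the dicer1 probes with respect to the mutant allele was not checked here, so these values are no check of the labels. Of the stage markers, 5 maternal ones summed to 37426 to 37877 at 16 cells, 1048 at 50% epiboly and 456 to 471 in wild type at 9 hours, and 7 zygotic ones to 287 to 310, 43179 and 45828 to 46415 at the same stages.

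The stage series asked how the messages differed before and after the onset of zygotic transcription. After that onset a signal is the sum of remaining maternal and newly made zygotic transcripts, which cannot be told apart here. All 6 genes were lower at 9 hours than at 16 cells, but to very different degrees. The fall was largest for ccna1, which fell by 6.34 on the log2 scale, followed by ccnb2, which fell by 3.57, and fbxo5, which fell by 2.68. The other 3 genes fell less: ccnb1 fell by 2.03, cdc20 fell by 1.98 and ccna2 fell by 1.79. Over all probe sets 75.7% were called, 40.0% lower and 35.6% higher at 9 hours.

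Cyclin A1 is the A-type cyclin of eggs and early embryos in frogs and of the male germ line in mice. The ccna1 intensity was 10327 and 10250 at 16 cells, 591 at 50% epiboly and 116, 98.2 and 119.5 at 9 hours. The difference between 9 hours and 16 cells was -6.34 ± 0.27 (SE, adjusted p = 3.56e-12). The 50% epiboly array lay 4.09 below the 16-cell mean on the log2 scale, and the 9-hour mean a further 2.26 below that array. Thus 64.4% of the log2 fall was already present on the single 50% epiboly array. No detection calls were used here, and over the 12 arrays outside the stage samples ccna1 was among the dimmest 40% of probe sets.

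The other A-type gene, ccna2, encodes the cyclin of S phase and mitotic entry in dividing cells. It measured 8923 and 8797 at 16 cells, 3309 at 50% epiboly and 2575, 2481 and 2581 at 9 hours. The difference was -1.79 ± 0.06 (adjusted p = 1.14e-13). The 3 stages did not overlap, and 79% of the log2 fall had been reached at 50% epiboly.

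The B-type partners of Cdk1 were unlike each other as well. Intensities of ccnb1 were 11469 and 12310 at 16 cells, 4406 at 50% epiboly and 2903, 2827 and 2990.1 at 9 hours, a difference of -2.03 ± 0.05 (adjusted p = 1.68e-15). Those of ccnb2 were 10420 and 10464, then 1194, then 883, 811 and 895, a difference of -3.57 ± 0.07 (adjusted p = 2.38e-16). The share of the log2 fall present at 50% epiboly was 87.1% for ccnb2 and 70.5% for ccnb1. Cdk1 itself, chosen after its values were seen, ran the other way, with 1330 ± 96.3 at 9 hours and 646 ± 5.14 at 16 cells (log2 difference 1.02 ± 0.06, adjusted p = 1.92e-10).

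Of the APC/C regulators, cdc20, the mitotic coactivator, measured 7498 and 7817 at 16 cells, 2338 at 50% epiboly and 1886, 1886 and 2000.4 at 9 hours (difference -1.98 ± 0.05, adjusted p = 1.00e-14). The inhibitor gene fbxo5 measured 7577 and 7716, then 2182, then 1195, 1148 and 1196 (difference -2.68 ± 0.06, adjusted p = 2.06e-15). In both genes the stages did not overlap, as in the other 4. Over all probe sets 84.5% did not overlap between 16 cells and 9 hours. The cdc20 fall was 85.9% complete at 50% epiboly and the fbxo5 fall 67.2% complete.

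Each gene was thus at least 2-fold lower on the 50% epiboly array than at 16 cells, as were 19.5% of all probe sets. Between 50% epiboly and 9 hours only ccna1 fell a further 2-fold or more, as did 2.90% of all probe sets. The 50% epiboly array has no replicate, so its differences carry no test. It shared a scan day and a fluidics run with the 16-cell arrays, while every 9-hour array had another scan day, so stage and day cannot be told apart in the comparison of 9 hours with 16 cells.

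**Figure D1:**
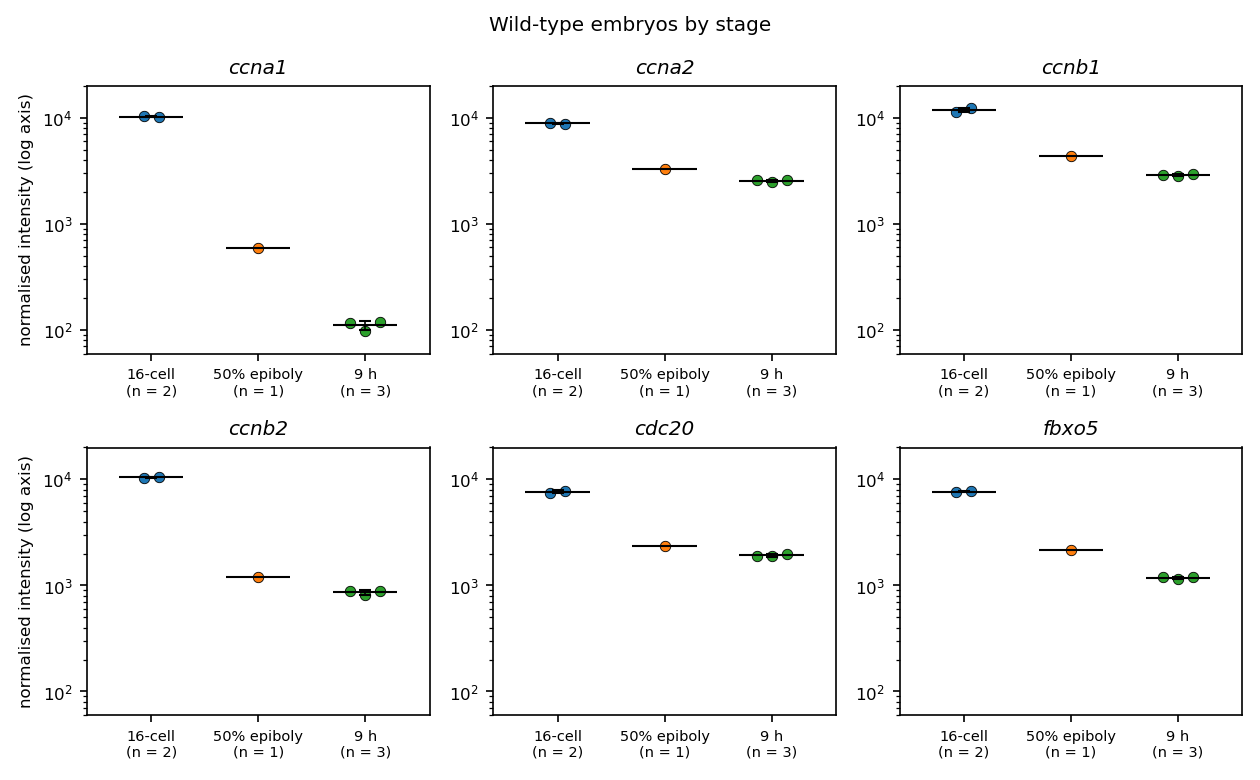
Normalised intensity (log axis, the same range in each panel) of the 6 genes in wild type at 16 cells (n = 2), at 50% epiboly (n = 1) and at 9 hours (n = 3). Points are arrays, horizontal lines are means and bars are SD. Heights should be compared within a panel, not between genes. The ccna1 points drop the farthest, to between 98.2 and 119.5 at 9 hours.

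In MZdicer at 9 hours the 6 genes split. Messages of ccna1 and ccnb2 were higher than in wild type of the same age, and those of ccna2, cdc20 and fbxo5 were lower, with a small fall in ccnb1. The comparison asked which messages change without Dicer. In it 47.4% of all probe sets were called, 22.2% higher and 25.2% lower. The higher share of the calls was 46.9%, 65.0% with intensities as deposited and 40.6% under median centring.

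The higher pair comprised a cyclin of each type. MZdicer arrays measured 190, 216 and 276 for ccna1, against 116, 98.2 and 119.5 in wild type. The difference was 0.92 ± 0.27 (SE, adjusted p = 0.0124) and was lost without MZdicer replicate 3 (0.78, adjusted p = 0.0544). The ccnb2 level was 1422, 1509 and 1468 in MZdicer against 883, 811 and 895 in wild type, with a difference of 0.75 ± 0.07 (adjusted p = 1.75e-06). In each gene all MZdicer arrays were above all wild-type arrays. Levels in MZdicer stayed far under the 16-cell level in both, at 227 ± 44.1 against 10288 ± 54.2 for ccna1 and 1466 ± 43.1 against 10442 ± 31.2 for ccnb2 (mean ± SD).

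The largest fall was that of cdc20. It measured 1035, 1033 and 950.2 in MZdicer against 1886, 1886 and 2000.4 in wild type, a difference of -0.93 ± 0.05 (adjusted p = 2.42e-08). Its antagonist in APC/C control, fbxo5, measured 811, 797 and 757 in MZdicer against 1195, 1148 and 1196 in wild type (-0.57 ± 0.06, adjusted p = 7.18e-06). The activator and the inhibitor of the APC/C were thus lower together. The S-phase cyclin gene ccna2 measured 1902, 1930.5 and 1853 against 2575, 2481 and 2581 (-0.42 ± 0.06, adjusted p = 4.38e-05).

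The remaining mitotic cyclin gene, ccnb1, had the smallest difference of the 6 genes, and its size depended on the scaling. It measured 2725, 2736 and 2556 in MZdicer against 2903, 2827 and 2990.1 in wild type. The difference of -0.12 ± 0.04 had an adjusted p of 0.0305, and the call was lost with intensities as deposited (0.0527), with scan day as a block (0.0504), with fluidics run as a random block (0.0516), with the replicate number as a block (0.0538), without a mean-variance trend (0.107), and without MZdicer replicate 3 (0.136) or wild-type replicate 1 (0.0507) or 3 (0.115). Among the 12 arrays fitted, wild-type replicate 1 alone had another scan day. The scan-day block therefore sets that array aside, as leaving it out does, and is not a separate adjustment for day. Under median centring the ccnb1 difference was larger, at -0.30 (adjusted p = 1.48e-04). Over all probe sets 57.8% did not overlap between these groups, as these 6 did not. MZdicer and uninjected wild-type arrays shared no fluidics run, so genotype and run cannot be told apart here. Of the 7 zygotic markers 1 was called higher and 2 lower in MZdicer, with the largest change in apoc1, at 4166 ± 175 against 6527 ± 110. Zygotic marker sums were 42703 to 43983 in MZdicer and 45828 to 46415 in wild type, and maternal marker sums were 450 to 489 and 456 to 471. Of the 5 maternal markers 1 was called higher and 1 lower in MZdicer. These were dazl, at 120 ± 11.7 against 75.3 ± 4.77, and zar1, at 168 ± 18.0 against 219 ± 14.4. Their part in the result was not tested.

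**Figure D2:**
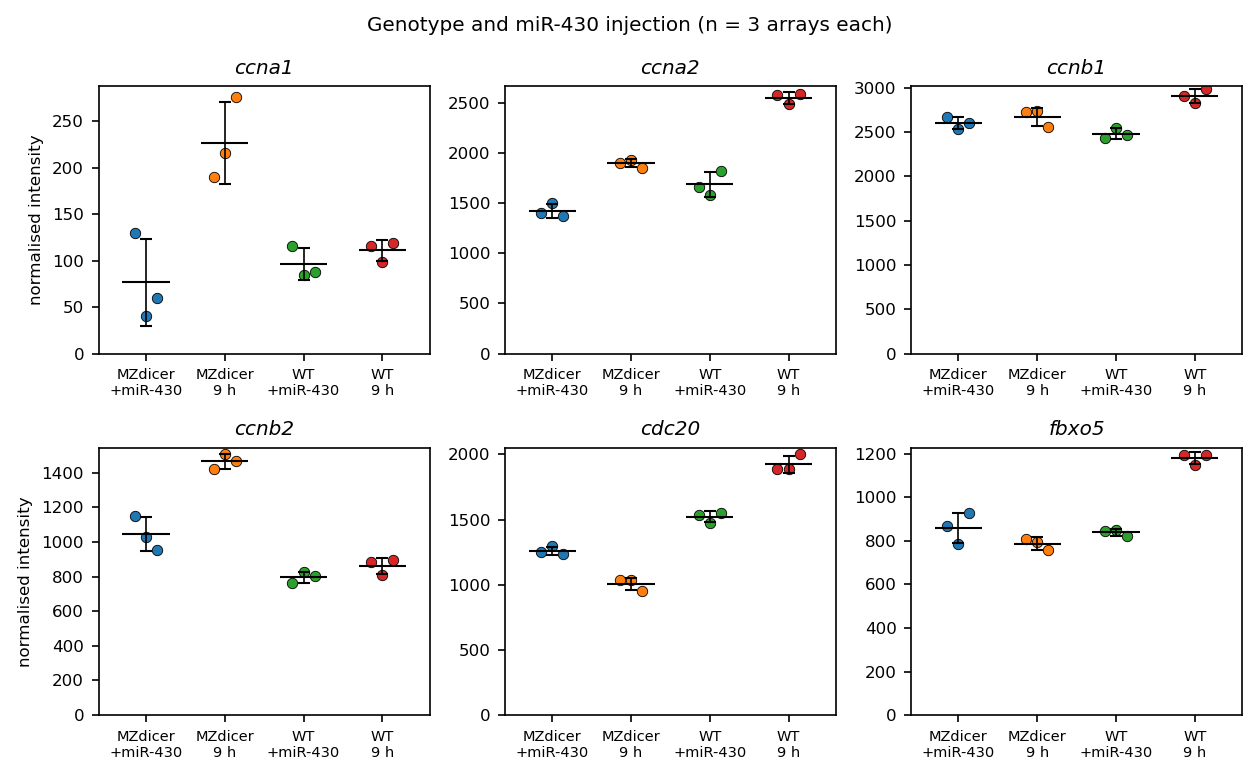
Normalised intensity (linear axis from 0) of the 6 genes in MZdicer injected with miR-430, uninjected MZdicer, wild type injected with miR-430 and uninjected wild type, 3 arrays each. Points are arrays, horizontal lines are means and bars are SD. The uninjected MZdicer points stand highest for ccna1 and ccnb2 and lowest for cdc20 and fbxo5 in their means.

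Injection of miR-430 into MZdicer embryos asked which of these levels moved after the microRNA was supplied. The uninjected MZdicer arrays also serve the previous comparison, with the opposite sign. A deviation of those arrays alone would move the differences of both comparisons in opposite directions, so they are not independent results. The 2 cyclin genes that were higher without Dicer were lower after injection. So was ccna2, which was already below wild type. The coactivator gene cdc20 rose, and fbxo5 and ccnb1 were not called. In this comparison 24.6% of all probe sets were called, 12.6% lower and 12% higher. The higher share of the calls was 48.7%, 38.6% with intensities as deposited and 49.3% under median centring. Of 8 genes known from other work as miR-430 targets, 3 were called lower, 0 were called higher and 5 were not called.

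The ccna1 level was 130, 40.5 and 59.3 in injected MZdicer against 190, 216 and 276 in uninjected MZdicer, a difference of -1.50 ± 0.27 (adjusted p = 0.00108). Injected replicate 1 was well above the other two arrays of its group, and the groups did not overlap. The size of the ccna1 difference depended on the number added before the logarithm, at -1.09 with 64 and -1.71 with 1. It ran from -1.88 to -1.20 when single arrays were left out. For ccnb2 the values were 1149, 1029 and 955 against 1422, 1509 and 1468 (-0.49 ± 0.07, adjusted p = 1.85e-04). The ccna2 values were 1396, 1500 and 1366 against 1902, 1930.5 and 1853 (-0.41 ± 0.06, adjusted p = 1.32e-04). In all 3 genes each injected array was below each uninjected one.

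The rise of cdc20 was to 1254, 1295 and 1233 in injected MZdicer, against 1035, 1033 and 950.2 in uninjected MZdicer. The difference was 0.32 ± 0.05 (adjusted p = 3.88e-04). For fbxo5 the values were 867, 786 and 927 against 811, 797 and 757, so the groups overlapped. The difference was 0.12 with a 95% confidence interval of -0.01 to 0.25 (adjusted p = 0.187), and it was called without injected replicate 2 (0.18, adjusted p = 0.0407) and was 0.07 without injected replicate 3 (adjusted p = 0.502). For ccnb1 the values were 2667, 2533 and 2602 against 2725, 2736 and 2556, a difference of -0.04 with an interval of -0.13 to 0.05 (adjusted p = 0.573).

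All 6 arrays of this comparison came from the same fluidics run, and the injected and uninjected arrays were washed on different stations. Of the 7 zygotic markers only apoc1 was called, at 5565 ± 691 in injected against 4166 ± 175 in uninjected MZdicer. Zygotic marker sums, which include apoc1, were 44151 to 44741 in injected MZdicer and 42703 to 43983 in uninjected MZdicer, without overlap. Maternal marker sums were 428 to 520 and 450 to 489. Their part in the result was not tested. Arrays did not overlap between these groups for 37.6% of all probe sets, and for 4 of the 6 genes.

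Injected MZdicer was also set against uninjected wild type. These groups shared no fluidics run either, so run cannot be told apart from their difference. The comparison shares its arrays with both of the previous ones, so its values are given side by side with theirs and not as separate evidence. Here ccna2 was 0.84 ± 0.06 lower (adjusted p = 8.06e-07), cdc20 0.60 ± 0.05 lower (3.10e-06), fbxo5 0.45 ± 0.06 lower (1.46e-04) and ccnb1 0.16 ± 0.04 lower (0.0115) on the log2 scale. The ccnb1 call was lost without a mean-variance trend (0.0585) and without wild-type replicate 3 (0.0540), while under median centring the difference was -0.31 (2.51e-04). The ccnb2 level was still 0.27 ± 0.07 higher (0.0100), and this call was lost with only the arrays compared (0.0560). For ccna1 the difference was -0.57 with an interval of -1.15 to 0.005 (0.123). It was -0.96 without injected replicate 1 (adjusted p = 0.00124) and -0.28 without injected replicate 2 (adjusted p = 0.416). The zygotic marker sums of injected MZdicer also lay below the 45828 to 46415 of uninjected wild type and the 44815 to 46435 of injected wild type. Against uninjected wild type 1 of the 7 zygotic markers was called higher and 2 lower, with apoc1 at 5565 ± 691 against 6527 ± 110. Here 5 of the 6 genes did not overlap, as 38.8% of all probe sets did not. Of all probe sets 31.3% were called, 15% lower and 16.3% higher. The higher share of the calls was 52.2% here, 68.9% with intensities as deposited and 44.2% under median centring.

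**Figure D3:**
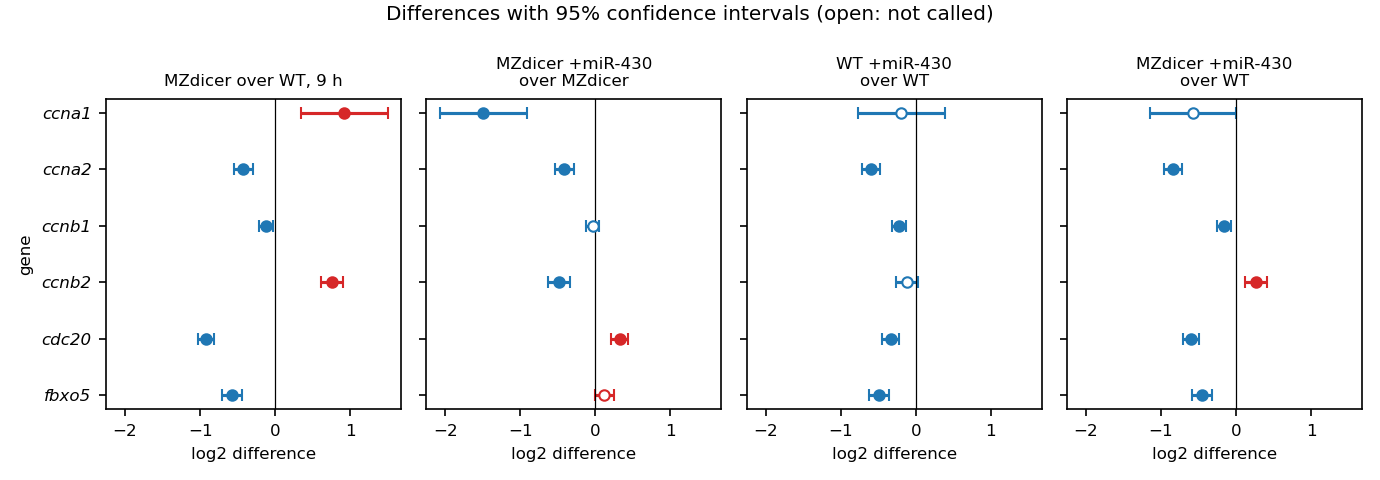
Log2 difference (horizontal axis) of each gene in 4 comparisons, with 95% confidence intervals from limma. Filled points were called and open points were not, red points are above 0 and blue points below 0. Points of ccna1 and ccnb2 lie right of 0 for MZdicer over wild type and left of 0 for injected over uninjected MZdicer, and points of cdc20 lie on the opposite sides. The uninjected MZdicer arrays enter both of these comparisons, so the opposite sides are not independent results. Uninjected wild-type arrays are the reference in each panel over wild type, so those panels are not independent of each other either.

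Wild-type embryos carry their own miR-430, and injection gave a different picture there. No gene rose, and ccna2, fbxo5, cdc20 and ccnb1 were lower. The uninjected wild-type arrays were also the reference for uninjected and injected MZdicer, in which the same genes were lower. A deviation of those wild-type arrays alone would lower these genes in each of these comparisons, so they are not independent results. The comparison of injected with uninjected wild type called 14.1% of all probe sets, 6.73% lower and 7.32% higher. The higher share of calls was 52.1%, 56.7% with intensities as deposited and 40.8% under median centring. Of the 8 known miR-430 targets 2 were called higher and 1 lower. The largest rise among these was that of nanos3, at 746 ± 45.6 in injected against 275 ± 20.4 in uninjected wild type. The ccna2 values were 1658, 1576 and 1822 in injected wild type against 2575, 2481 and 2581 in uninjected wild type (-0.59 ± 0.06, adjusted p = 3.09e-05). Those of fbxo5 were 848, 849 and 822 against 1195, 1148 and 1196 (-0.48 ± 0.06, adjusted p = 2.61e-04). These genes of DNA replication and of APC/C inhibition thus fell without overlap.

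Injected wild type measured 1539, 1474 and 1551 for cdc20 against 1886, 1886 and 2000.4 (-0.34 ± 0.05, adjusted p = 7.73e-04). For ccnb1 it measured 2431, 2547 and 2467 against 2903, 2827 and 2990.1 (-0.23 ± 0.04, adjusted p = 0.00314), a difference of -0.36 under median centring (adjusted p = 2.57e-04). Both groups were again apart, as they were for 33.4% of all probe sets. The 2 genes that were high in MZdicer were not called here. The ccna1 values were 116, 84.8 and 87.5 against 116, 98.2 and 119.5, a difference of -0.19 with an interval of -0.77 to 0.39 (adjusted p = 0.709). The ccnb2 values were 762, 825 and 803 against 883, 811 and 895, a difference of -0.11 with an interval of -0.26 to 0.04 (adjusted p = 0.325). No fluidics run held injected and uninjected wild-type arrays together.

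Whether the response to injection differed between the genotypes was tested by the interaction, the injection difference in MZdicer minus that in wild type. Injected and uninjected wild-type arrays shared no fluidics run, while all MZdicer arrays came from the same run. The interaction therefore cannot be told apart from a difference between runs. It is also formed from the arrays of the comparisons above, so it is not an independent result. The interaction called 22.6% of all probe sets, 10.7% higher and 11.9% lower, with a higher share of calls of 47.2%, or 35.1% with intensities as deposited and 53.8% under median centring. It was called for cdc20 (0.66 ± 0.07, adjusted p = 3.93e-05) and fbxo5 (0.60 ± 0.09, adjusted p = 3.17e-04), the APC/C regulators. Both fell on injection into wild type, while on injection into MZdicer cdc20 rose and fbxo5 was not called. Mean fbxo5 levels were 860 in injected MZdicer, 788 in uninjected MZdicer and 840 in injected wild type, against 1180 in uninjected wild type. The interaction was called in the other direction for ccnb2 (-0.37 ± 0.10, adjusted p = 0.0143), which fell on injection into MZdicer. The ccnb2 call was lost under median centring (-0.28, adjusted p = 0.0882).

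For ccna1 the interaction was -1.30 ± 0.38 (adjusted p = 0.0244), a call lost without injected MZdicer replicate 3 (adjusted p = 0.0547), MZdicer replicate 3 (0.0655), injected wild-type replicate 1 (0.0640) or wild-type replicate 2 (0.0584). Over the alternatives the ccna1 interaction ran from -1.69 to -0.96. For ccnb1 it was 0.19 ± 0.06 (adjusted p = 0.0369), a call lost in 10 of 22 alternatives, with adjusted p of 0.132 at most. Under median centring it was larger, at 0.34 (adjusted p = 0.00232). The 10 lost calls include those of the scan-day block and of the fit without wild-type replicate 1, which set the same array aside. The ccna2 interaction of 0.18 was not called (adjusted p = 0.128), but was with intensities as deposited (0.26, adjusted p = 0.0429), under median centring (0.35, adjusted p = 0.00502) and without injected wild-type replicate 3 (0.24, adjusted p = 0.0385).

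Injected MZdicer against injected wild type gave 3 calls among the 6 genes. Here 20.9% of all probe sets were called, 11.4% higher and 9.45% lower, with a higher share of calls of 54.7%, or 71.0% with intensities as deposited and 54.6% under median centring. The ccnb2 level was higher in injected MZdicer (0.38 ± 0.07, adjusted p = 0.00187), at 1045 ± 97.8 against 797 ± 32.1 in injected wild type (mean ± SD, n = 3 each). The cdc20 level was lower (-0.27 ± 0.05, adjusted p = 0.00234), at 1261 ± 31.5 against 1521 ± 41.1. The ccna2 level was 1421 ± 70.6 against 1685 ± 125 (-0.24 ± 0.06, adjusted p = 0.00847), a call lost with intensities as deposited (adjusted p = 0.0525) and with only the arrays compared (0.0536). Not called were fbxo5 (0.03, interval -0.10 to 0.16), ccnb1 (0.07, interval -0.02 to 0.16) and ccna1 (-0.38, interval -0.96 to 0.20), and the last was called without injected MZdicer replicate 1 (-0.77, adjusted p = 0.00707) and was -0.09 without injected MZdicer replicate 2 (adjusted p = 0.842). The 3 called genes did not overlap between the groups, as 34.1% of all probe sets did not. Only injected wild-type replicate 3 shared the fluidics run of the injected MZdicer arrays, and it was washed on another station. Genotype and run can therefore hardly be told apart in this comparison.

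The order of the 6 groups therefore differed between the genes, although 16 cells stood first in each. For ccna2 it ran from 16 cells through 50% epiboly, wild type, MZdicer and injected wild type to injected MZdicer, with no overlap between neighbouring groups. For cdc20 it ran through 50% epiboly, wild type, injected wild type and injected MZdicer to MZdicer, also with no overlap. The share of all probe sets with no overlap along such an order was not counted. It was 33.4% to 84.5% for the single pairs of groups compared above, and 50% epiboly is 1 array. In ccnb2 uninjected MZdicer stood second, above the 50% epiboly array, at 1422 to 1509 against 1194. It was followed by injected MZdicer, wild type and injected wild type, of which the last pair overlapped. In ccna1 MZdicer stood next after 50% epiboly, and wild type, injected wild type and injected MZdicer overlapped with their neighbours below it. In fbxo5 wild type came next after 50% epiboly, injected MZdicer and injected wild type overlapped, and MZdicer was last. In ccnb1 wild type came next after 50% epiboly and was followed by MZdicer, injected MZdicer and injected wild type, which overlapped with their neighbours.

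Genes of the same pathway were described from 3 lists, and the kinase genes aurka and plk1 stand in both the first and the last. Of 37 other cyclins, Cdks and Cdk regulators 27 were measured, of 27 APC/C subunits, coactivators, partner enzymes and checkpoint or inhibitor genes 20, and of 26 other APC/C substrates 19. At 9 hours against 16 cells, 12 of the 27 cyclin and Cdk genes were higher and 13 lower (median log2 difference -0.12). Of the 20 APC/C genes 5 were higher and 12 lower (median -0.49), and of the 19 substrates 3 were higher and 13 lower (median -1.31). The median of all probe sets was -0.08, and 35.6% of them were called higher and 40.0% lower.

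Among the cyclin and Cdk genes the largest falls by 9 hours were those of wee2, an oocyte kinase that inhibits Cdk1, at 89.2 ± 6.29 against 7251 ± 102 at 16 cells, and of the G1/S cyclin gene ccne1, at 1004 ± 71.9 against 5448 ± 98.9. The largest rises were those of the G1 cyclin gene ccnd1, at 4549 ± 81.5 against 130 ± 37.0, and of the Cdk inhibitor gene cdkn1ca, at 1902 ± 94.1 against 59.1 ± 6.42. Another inhibitor of the APC/C, fbxo43 (Emi2), which holds vertebrate eggs in meiosis, stood at 31.0 ± 10.1 against 2374 ± 59.8. The checkpoint gene mad1l1 stood at 106 ± 11.0 against 1002 ± 4.33. The APC/C subunit genes anapc10 and cdc26 were higher at 9 hours, at 937 ± 32.1 against 281 ± 19.1 and 978 ± 48.8 against 299 ± 8.42. Of the substrates, birc5b, a subunit of the chromosomal passenger complex, fell to 94.5 ± 6.23 against 6034 ± 321 at 16 cells, and the mitotic kinase gene nek2 to 164 ± 11.2 against 2032 ± 14.4. The thymidine kinase gene tk1 (log2 difference 2.04) and the spindle gene dlgap5 (0.68) rose.

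In MZdicer against wild type, 6 of the 27 cyclin and Cdk genes were higher and 13 lower (median log2 difference -0.23), 5 of the 20 APC/C genes were higher and 6 lower (median -0.01), and 3 of the 19 substrates were higher and 9 lower (median -0.18). The median of all probe sets was -0.07, and 22.2% of them were called higher and 25.2% lower. The largest rise among the cyclin and Cdk genes was in arpp19b, which inhibits the phosphatase that opposes Cdk1, at 2618 ± 113 against 1618 ± 103. It was followed by cdc25b, the phosphatase that activates Cdk1, at 2497 ± 122 against 1796 ± 87.8. The largest falls were those of cdk5 (-1.34 ± 0.16) and ccne1 (-0.86 ± 0.12). The checkpoint gene trip13 (0.90 ± 0.09) and fbxo43 (0.60 ± 0.18) rose and the subunit genes anapc10 (-1.06 ± 0.09) and anapc11 (-0.37 ± 0.07) fell. The fbxo43 signal was dim in both groups, at 54.1 ± 4.81 in MZdicer against 31.0 ± 10.1 in wild type, so its rise is less certain. Prc1b, which bundles microtubules in the spindle midzone, was 1.64 ± 0.07 higher, and the replication licensing gene cdc6 was 1.00 ± 0.07 lower. The genes nek2 (0.45) and tk1 (-0.79) changed as well.

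After injection into MZdicer, 4 of the 27 cyclin and Cdk genes were higher and 5 lower (median -0.02). Of the 20 APC/C genes 4 were higher and 4 lower (median -0.07). Of the 19 substrates 4 were higher and 3 lower (median -0.01). The median of all probe sets was 0.04, and 12% of them were called higher and 12.6% lower. Cdk1, the kinase that B-type cyclins activate, was at 1008 ± 14.0 in injected MZdicer against 1530 ± 26.9 in uninjected MZdicer (-0.59 ± 0.05, adjusted p = 4.57e-06). Its activator cdc25b was 0.45 ± 0.07 lower. The Cdk-activating kinase gene cdk7 (0.84 ± 0.08) and bora (0.41 ± 0.14), a cofactor of Aurora A kinase, were higher. Rises of anapc10 (0.63 ± 0.09), cdc23 (0.34 ± 0.06), cdc6 (0.56 ± 0.07) and the ubiquitin ligase gene skp2 (0.41 ± 0.04) stood beside falls of trip13 (-0.63 ± 0.09), the APC/C subunit gene cdc27 (-0.40 ± 0.08), prc1b (-0.78 ± 0.07) and the cytokinesis gene anln (-0.54 ± 0.06).

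After injection into wild type, 1 of the 27 cyclin and Cdk genes was higher and 4 lower (median -0.07), 0 of the 20 APC/C genes were higher and 1 lower (median -0.06), and 1 of the 19 substrates was higher and 2 lower (median -0.05), beside a median of all probe sets of -0.01. Of all probe sets 7.32% were called higher and 6.73% lower. The transcription kinase gene cdk9 was 0.20 ± 0.04 higher, and its cyclin gene ccnt1 was 0.34 ± 0.07 lower. Another B-type cyclin gene, ccnb3, was at 1215 ± 70.1 in injected wild type against 1509 ± 37.0 in uninjected wild type (-0.31 ± 0.07, adjusted p = 0.00865). The checkpoint gene bub3 (-0.19 ± 0.05), the licensing inhibitor gene gmnn (-0.27 ± 0.07) and cdc6 (-0.25 ± 0.07) fell, and prc1b (0.34 ± 0.07) rose.

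**Figure D4:**
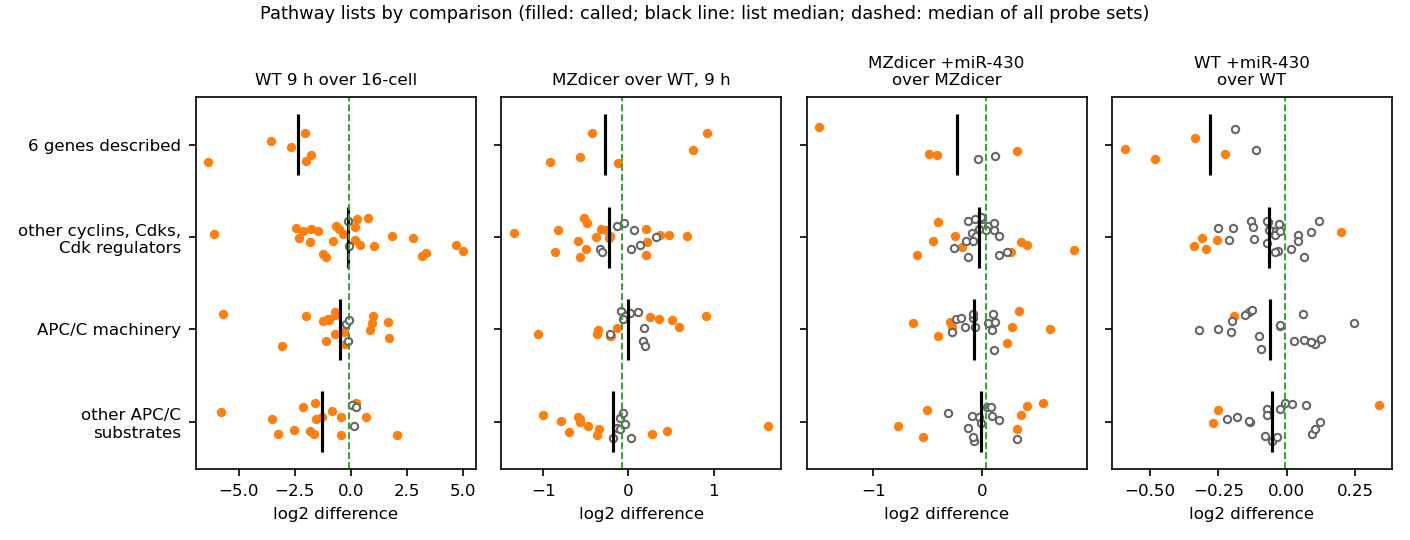
Log2 differences (horizontal axis, a separate range in each panel) of the 6 genes and of the measured genes of 3 pathway lists in 4 comparisons. Each point is a gene, filled where called and open where not, black lines are list medians and the dashed line is the median of all probe sets. Vertical spread within a list has no meaning. At 9 hours over 16 cells the medians were -2.35 for the 6 genes and -0.12, -0.49 and -1.31 for the lists.

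Genes with the most similar pattern were found by the root mean square difference of the 6 group means on the log2 scale, after each profile was centred on its own mean, among 9995 probe sets. For ccna1 these were the cytokinesis kinesin gene kif23 (difference 0.32) and the oocyte linker histone gene h1m (0.52). The kif23 level was 65.0 ± 13.0 in uninjected MZdicer and 21.8 ± 13.6 in wild type, beside 3706 ± 334 at 16 cells. In injected MZdicer and injected wild type it was dim as well, at 14.4 ± 14.6 and 18.0 ± 8.63. The h1m level was 106 ± 7.77 in uninjected MZdicer, 98.6 ± 8.16 in wild type and 130 ± 30.0 in injected MZdicer. Between these 9-hour and injected groups h1m did not follow ccna1. For ccnb2 they were pdcd4b (0.09) and stra6 (0.10), and for cdc20 the kinase gene stk38a (0.07) and the annexin gene anxa3b (0.09). The stra6 signal was dim, at 40.0 ± 8.04 in uninjected MZdicer and 16.2 ± 1.05 in wild type. That of anxa3b was 22.8 ± 5.21 and 53.4 ± 10.4 in the same groups. At such levels, and at those of kif23, the 16 added before the logarithm shapes the match. For fbxo5 they were the tight junction gene oclna (0.09) and rcc1 (0.11), the exchange factor for the Ran GTPase, which was at 771 ± 29.4 in MZdicer and 1204 ± 64.3 in wild type. For ccna2 they were the fatty acid elongase gene elovl6l (0.08) and the phosphatase subunit gene ppp4r2a (0.10), and for ccnb1 ilvbl (0.04) and yipf5 (0.05). The elovl6l arrays of injected MZdicer were widely spread, at 350 ± 190. The ilvbl probe set's name also has an ending that marks possible matches to other transcripts. Pearson correlations over the 6 group means, which the stage difference dominates, ran from 0.976 to 0.999.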

How the data were processed

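The authors deposited linear intensities, 1 for each probe set and array, and some are below 0. The sources used here do not give the authors' probe summary, background correction or scaling. Per the labels' protocols, 2 µg of total RNA was primed with oligo(dT), amplified and labelled with biotin. Of 15617 probe sets, 115 controls were left out. Intensities were quantile normalised over 15 arrays, set to 0 where below it, and analysed as log2(intensity + 16). The annotation gave 10795 probe sets 1 symbol, 135 several and 4572 none, and no gene was named from several.

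Tests used limma 3.58.1 in R 4.3.3, with a mean-variance trend in eBayes and Benjamini-Hochberg adjustment over 15502 probe sets. Genotype and injection were fitted over 12 arrays (8 residual degrees of freedom). The fit of 9 hours against 16 cells held 15 arrays (9 residual degrees of freedom). The fit was also run on simulated data with independent noise, no run or day effect, and changes only in brighter probe sets. That run is no check of batches or of dim genes. With no counts, the number of arrays limits the precision.

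Each gene of a list was represented by its probe set of highest mean. List genes named are at most the 2 largest rises and 2 largest falls per list and comparison among called genes whose arrays did not overlap, and the 2 most similar genes per member were named. Members and lists were chosen with earlier results of these data known. Scan day and fluidics run (the hybridisation time), per the file headers, served as batch labels, with 3 days and 5 runs. Alternatives were other scalings, pseudocounts (1 and 64), leaving out the dimmest 40%, no trend, only the arrays compared, 3 kinds of block and leaving out each array. Quantile normalisation over 12 arrays was chosen after seeing the data.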

Additional observations from a re-analysis of the deposited data

Results flagged for a closer look

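The response to injection differed between MZdicer and wild type, by the test of the difference itself, for 5 of the 6 genes. The injection difference in MZdicer minus that in wild type was 0.66 for cdc20 and 0.60 for fbxo5 on the log2 scale. It was 0.19 for ccnb1, -0.37 for ccnb2 and -1.30 for ccna1. With 1 array left out, 3 to 5 of the 6 genes were called. The ccnb1 call was lost in 10 alternatives, the ccna1 call in 4 and the ccnb2 call in 1, median centring. In all, 22.6% of probe sets passed this test. Injection and fluidics run cannot be told apart in wild type, and so not in this test either. The test is formed from the arrays of the comparisons above, so it is not an independent result. Injected MZdicer replicate 1 measured 130 for ccna1, against 40.5 and 59.3 in replicates 2 and 3.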

How the results depend on the processing

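All 6 falls at 9 hours against 16 cells kept their direction and call in each of 23 alternatives. The same held for ccna2, ccnb2, cdc20 and fbxo5 in MZdicer against wild type, for ccna1, ccna2, ccnb2 and cdc20 after injection into MZdicer, and for ccna2, ccnb1, cdc20 and fbxo5 after injection into wild type. For 9 hours against 16 cells, 15 of the 23 left out a single array, including arrays of groups outside that comparison. Neither scan day nor fluidics run was fitted as a block for it. For MZdicer against wild type and for injection into wild type, the groups compared shared no fluidics run. No alternative, the run block included, can therefore tell run apart from genotype or injection there. Filtering out the dimmest 40% gave no ccna1 value over 12 arrays. Each gene has 1 probe set, so choosing another was not possible. The uncalled difference of fbxo5 between injected MZdicer and injected wild type ran from -0.0233 to 0.0933 when single arrays were left out, and was below 0 without injected MZdicer replicate 3 (adjusted p = 0.86). Fitting only the arrays compared gave 2141 called probe sets for injected MZdicer against injected wild type, against 3237 over 12 arrays, a fit with fewer samples. Leaving out 1 array at a time gave 1340 to 2894 called probe sets for injection into wild type, against 2179, and the lowest was without uninjected replicate 3. It gave 3 to 5 of the 6 genes for the interaction, with 3 without injected MZdicer replicate 3, MZdicer replicate 3 or injected wild-type replicate 1. Deposited intensities moved the median log2 difference of all probe sets between 9 hours and 16 cells to 0.15, against -0.08, and median centring to 0.02. With the dimmest 40% left out 57.3% of calls there were higher, against 47.1%, and 7939 probe sets were called, against 11728. Same-numbered arrays of different groups gave r of -0.23 to 0.26, inside the -0.40 to 0.38 of other pairs. Only 3 of 12 arrays correlated best with their own number. These are deviations from means of 3 arrays, so they cannot tell whether arrays shared a clutch or day. With the replicate number as a block 7121 probe sets were called for MZdicer against wild type, 3606 for injection into MZdicer, 1930 for injection into wild type and 3250 for the interaction. Signal limits ccna1 most. Its wild-type 9-hour values of 98.2 to 119.5 lie below the arrays' median deposited intensities of 154 to 195. So do its values of 40.5 to 130 in injected MZdicer.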
